A study of Mus musculus with 6 samples.

Results

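The mitotic genes described here are Mki67, Birc5, Ccnb2 and Aurkb, 4 of the 632 genes in the deposited table, and they were picked out by gene symbol, with earlier results of these data known. RNA was sequenced from flow-sorted prostate epithelial cells of 3-month-old C57BL/6 mice, in 3 E-cadherin conditional knockout libraries and 3 libraries of control littermates. E-cadherin is the main adhesion receptor between epithelial cells, and the study asked how its loss bears on cell polarity and spindle orientation. The sources used here give neither the Cre driver, nor the marker that defined the sorted cells, nor whether each library came from its own animal. The p-values thus reflect spread among libraries that may be technical in part. A bulk RNA kit and a droplet single-cell kit are both named in the labels, and the table, with 1 value per gene and library, does not settle which was used.

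The values were taken as FPKM, fragments scaled for the length of the transcript and for the size of the library, and the depth behind them is unknown. The 632 genes are a selection by the authors, by a rule the sources used here do not state. Nearly all listed ratios of knockout over control lay either below -0.26 or above 0.56 on the log2 scale (1% bounds of the falls and of the rises), so that presence in the table already goes with a difference between the groups. The p-values below therefore describe a list selected on these libraries and are not independent evidence. Knockout titles carry the mark L7 and control titles the mark L2, so genotype and whatever these marks stand for cannot be told apart. Cdh1, the gene of E-cadherin, was not among the listed genes, which left no check of the labels on the targeted gene. Of the epithelial markers, 5 of 10 basal and 3 of 15 luminal genes were listed, Krt5 and Krt14 among them, and markers of blood cells were present too, as described below.

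A cell entering mitosis accumulates a set of proteins that are degraded again as it divides, and most of their genes are switched on late in the cell cycle. Ki-67, encoded by Mki67, coats mitotic chromosomes and is the usual tissue marker of cycling cells. Cyclin B2, encoded by Ccnb2, is a regulatory subunit of the kinase CDK1, which drives entry into mitosis. Aurora kinase B, encoded by Aurkb, and survivin, encoded by Birc5, are subunits of the chromosomal passenger complex, which corrects faulty attachments of chromosomes to the spindle and acts again in cytokinesis. Genes of this kind are repressed outside late cell cycle phases through a promoter element called the cell cycle genes homology region (CHR), bound by the DREAM and MuvB complexes, often next to CCAAT boxes bound by the factor NF-Y.

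The promoter windows of these genes are shown because the CHR and the CCAAT box are known from promoters of mitotic genes. Whether the motifs bear on the rise of the genes was not tested. RefSeq windows of 300 bases (GRCm38.p6, 250 bases before to 50 after the gene start, 5′ to 3′ on the strand of the gene) were matched for 3 of the 4 genes. Capitals mark the letters CCAAT (the NF-Y box) and TTTGAA or TTCGAA (the CHR), each searched on both strands, so that ATTGG and TTCAAA are the same motifs on the opposite strand. The windows are those of Mki67 (chr7:135716330-135716629, minus strand), Ccnb2 (chr9:70421505-70421804, minus strand) and Birc5 (chr11:117848987-117849286, plus strand), followed by that of Cenpa (chr5:30666636-30666935, plus strand), another listed mitotic gene.
Mki67: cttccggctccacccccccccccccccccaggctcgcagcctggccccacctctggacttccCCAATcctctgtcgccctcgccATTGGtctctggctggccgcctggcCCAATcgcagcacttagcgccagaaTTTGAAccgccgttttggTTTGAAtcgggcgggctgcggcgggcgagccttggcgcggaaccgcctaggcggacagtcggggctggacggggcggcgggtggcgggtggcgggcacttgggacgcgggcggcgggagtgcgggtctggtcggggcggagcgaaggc
Ccnb2: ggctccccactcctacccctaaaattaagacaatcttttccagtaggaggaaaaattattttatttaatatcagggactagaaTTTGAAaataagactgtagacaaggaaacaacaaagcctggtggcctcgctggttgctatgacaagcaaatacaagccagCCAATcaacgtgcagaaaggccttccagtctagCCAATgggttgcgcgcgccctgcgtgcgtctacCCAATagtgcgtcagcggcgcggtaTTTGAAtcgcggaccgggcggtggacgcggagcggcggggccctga
Birc5: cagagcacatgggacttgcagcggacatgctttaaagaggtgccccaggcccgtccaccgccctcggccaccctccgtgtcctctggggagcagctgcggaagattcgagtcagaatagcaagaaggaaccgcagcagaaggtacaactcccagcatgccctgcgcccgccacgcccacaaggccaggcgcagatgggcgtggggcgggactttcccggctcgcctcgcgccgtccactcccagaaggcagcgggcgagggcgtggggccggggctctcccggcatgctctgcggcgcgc
Cenpa: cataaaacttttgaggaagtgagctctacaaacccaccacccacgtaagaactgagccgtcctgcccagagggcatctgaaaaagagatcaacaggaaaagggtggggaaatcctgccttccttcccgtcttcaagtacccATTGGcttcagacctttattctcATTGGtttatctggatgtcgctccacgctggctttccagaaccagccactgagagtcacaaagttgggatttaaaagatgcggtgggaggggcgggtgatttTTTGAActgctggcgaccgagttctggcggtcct

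The Mki67 window held 3 matches to the NF-Y box and 2 to TTTGAA. The Ccnb2 window held the same numbers, 3 and 2. In Ccnb2 the CCAAT matches stood at -87, -54 and -21 relative to the gene start, 33 bases apart each time, and a TTTGAA followed at 5, just inside the transcribed part. In both genes the nearest CCAAT before a TTTGAA on the strand of the gene began 25 bases upstream of it. This spacing, looked for because it was seen in these 2 windows, occurred in 6 of 32851 promoter windows (0.0183%), with Mki67 and Ccnb2 included. No other spacing was counted, and any single exact spacing may be rare, so the share does not set this one apart. The Birc5 window held none of these letters, which says only that they are absent from these 300 bases.

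Of 9 listed mitotic genes, 6 had a window, and 5 of the 6 held at least 2 NF-Y boxes together with a CHR match, in Mki67, Ccnb2, Cenpa, Ect2 and Kif22. The same combination occurred in 2.31% of all windows, in 3.44% of 524 windows of listed genes and in 3.61% of 332 windows of listed genes that rose. The window of Mcm5, a subunit of the helicase that opens DNA for replication and the only listed gene of the DNA replication list, held 3 NF-Y boxes and no CHR match. TTTGAA alone is common, with 17.9% of all windows, and TTCGAA occurred in 1.56%. A match in the letters is not evidence of binding, and none was measured.

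**Figure D1:**
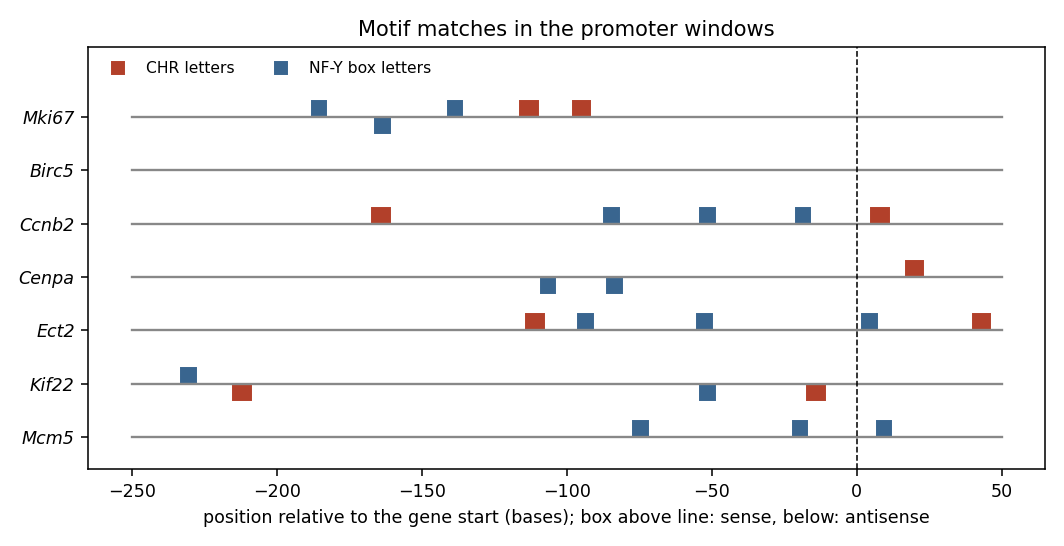
Matches to the NF-Y box (blue) and the CHR (red) in the promoter windows of the listed cell cycle genes that had one, by position in bases relative to the gene start, with sense matches above and antisense matches below each line; for Ect2 the first of 2 windows is drawn. The 5 mitotic genes other than Birc5 hold both motifs, Birc5 holds none and the replication gene Mcm5 holds NF-Y boxes only.

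All 4 genes were higher in every knockout library than in any control library, as 66.9% of all listed genes were. They rose by about the same factor, 3.10-fold to 3.42-fold in group means. Replicates are numbered within each group, and equal numbers in knockout and control do not mark matched libraries. Mki67 had 0.899, 0.636 and 1.13 FPKM in knockout replicates 1 to 3, against 0.284, 0.252 and 0.243 FPKM in control replicates 1 to 3. The knockout values spread over a 1.78-fold range and the control values over 1.17-fold. Its mean was 0.888 ± 0.247 FPKM in knockout and 0.260 ± 0.0216 FPKM in control (SD, n = 3 each), a 3.42-fold difference, and limma called it as risen (log2 difference 0.58, SE 0.11, adjusted p = 0.0057). Adjusted p-values are Benjamini-Hochberg values over the 632 listed genes at a threshold of 0.05, and limma differences are on the log2(FPKM + 1) scale. For genes below 1 FPKM the pseudocount shrinks the difference, which is why 0.58 stands beside a log2 ratio of means of 1.77.

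Of the passenger complex subunits, Birc5 had 2.11, 1.62 and 3.43 FPKM in knockout replicates 1 to 3, against 0.729, 0.759 and 0.692 FPKM in the control replicates. The control libraries were within a 1.10-fold range while knockout replicate 3 had 2.12 times the value of replicate 2. The means were 2.38 ± 0.935 FPKM in knockout and 0.727 ± 0.0334 FPKM in control (SD, n = 3 each), a 3.28-fold rise (limma log2 difference 0.94, SE 0.20, adjusted p = 0.00688). Birc5 is also counted among the inhibitor of apoptosis family, of which it was the only listed member out of 10 searched.

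Aurkb had 1.78, 0.865 and 2.35 FPKM in knockout replicates 1 to 3, against 0.572, 0.472 and 0.565 FPKM in the control replicates. Knockout replicate 2 stood lowest, at 1.61 times the control mean, while replicates 1 and 3 were at 3.32 and 4.38 times. Its mean was 1.67 ± 0.750 FPKM in knockout and 0.536 ± 0.0558 FPKM in control (SD, n = 3 each), and it rose 3.10-fold (limma log2 difference 0.75, SE 0.21, adjusted p = 0.0186). This was the least certain of the 4: limma did not call it without knockout replicate 1 (adjusted p = 0.0521) or without control replicate 2 (adjusted p = 0.0562), in a range of 0.00606 to 0.644 over all alternatives.

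Ccnb2 had 1.18, 0.974 and 1.85 FPKM in knockout replicates 1 to 3, against 0.496, 0.475 and 0.316 FPKM in the control replicates. Control replicate 3 was the low one here, and the control values covered a 1.57-fold range. The means were 1.33 ± 0.456 FPKM in knockout and 0.429 ± 0.0985 FPKM in control (SD, n = 3 each), a 3.11-fold rise (limma log2 difference 0.69, SE 0.16, adjusted p = 0.00807).

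**Figure D2:**
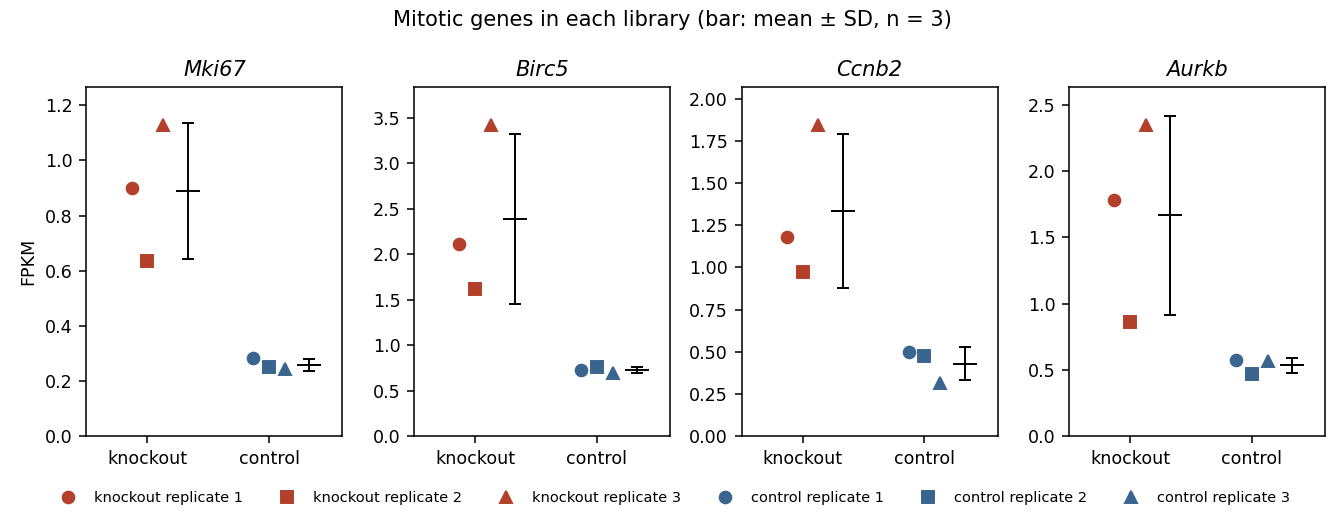
FPKM of Mki67, Birc5, Ccnb2 and Aurkb in the 3 knockout libraries (red, left) and the 3 control libraries (blue, right), with the mean ± SD of each group as black bars. Every knockout point lies above every control point, and knockout replicate 3 (triangle) is the highest and knockout replicate 2 (square) the lowest of its group in all 4 panels.

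An exact two-sided permutation test over libraries gave p = 0.1 for each gene, which is the smallest value that 3 libraries against 3 allow. With limma, 4 of 4 genes were called as risen, where 65.3% of all listed genes were. Centred on the median of the listed genes, or with the adjustment widened to all annotated protein-coding genes, 0 of the 4 were called, with adjusted p-values from limma of 0.0636 to 0.232 and of 0.198 to 0.644, while all 4 stayed higher in knockout. Among the 194 listed genes with 0.8 to 4 FPKM in the higher group, a band chosen after the values were seen, 85.1% were called as risen, so the call itself does not set these genes apart. All 3 knockout libraries lay above all 3 control libraries for 66.9% of listed genes. In size, the 4 genes ranked 102nd (Mki67), 110th (Birc5), 123rd (Ccnb2) and 124th (Aurkb) of 632 by fold, and the median listed gene was 1.91-fold higher in knockout.

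**Figure D3:**
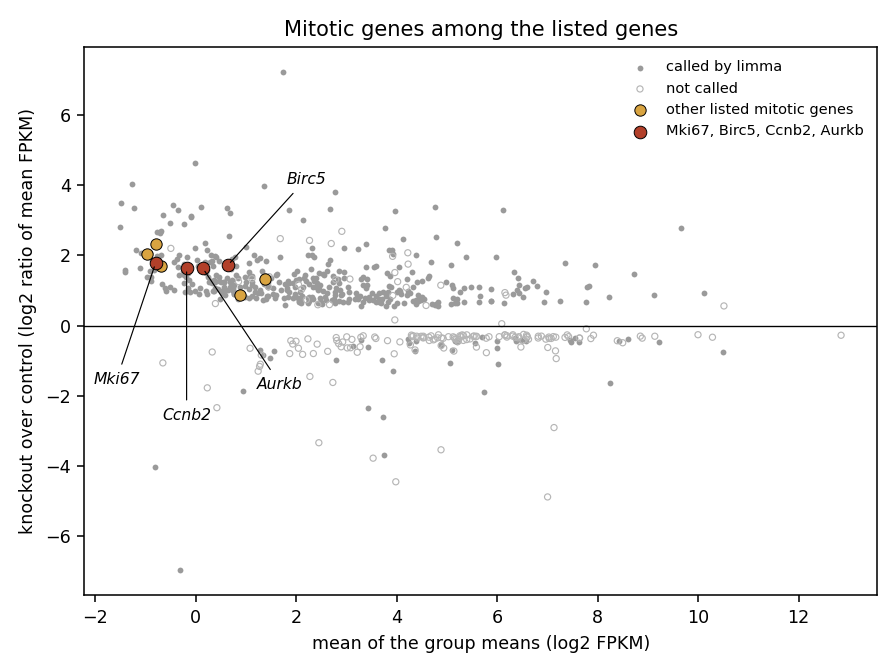
Log2 ratio of mean FPKM, knockout over control, against the mean level of each listed gene, with the 4 mitotic genes in red, the other 5 listed mitotic genes in yellow, genes called by limma as filled grey points and the others as open ones; genes with a group mean of 0 are left out. The 4 genes sit at low levels with log2 ratios of 1.63 to 1.77, above the median of 0.93 and within the range of other listed genes of similar level.

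In level, Birc5 was the highest and Mki67 the lowest of the 4 in each of the 6 libraries, on the FPKM scale, which is per length of transcript. Aurkb and Ccnb2 were not ordered, since Aurkb was higher in knockout replicates 1 and 3 and control replicates 1 and 3 and Ccnb2 in the other 2 libraries. Multiplied by the longest annotated coding transcript, 10.061 kb for Mki67 and 1.531 kb for Ccnb2, the means correspond in fragments scaled for library size alone to 8.94 in knockout and 2.61 in control for Mki67, and to 2.04 in knockout and 0.657 in control for Ccnb2. The same product was 7.95 in knockout and 2.42 in control for Birc5, and 3.25 in knockout and 1.05 in control for Aurkb. No source used here gives the lengths the authors divided by, so these products are approximate and give no order of the genes.

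The proportions of the 4 genes to each other overlapped between the groups. The ratio of Birc5 to Ccnb2 was 1.66 to 1.86 in knockout libraries and 1.47 to 2.19 in control libraries, and that of Birc5 to Mki67 was 2.35 to 3.03 in knockout and 2.56 to 3.01 in control. Birc5 to Aurkb, within the passenger complex, was 1.19 to 1.87 in knockout and 1.22 to 1.61 in control. The 6 ratios formed among these genes included Ccnb2 to Mki67, Aurkb to Mki67 and Aurkb to Ccnb2, and for all 6 the knockout and control values overlapped. Incenp, the scaffold that holds survivin and the kinase together, rose less, by 1.84-fold, beside 1.91-fold for the median listed gene. Birc5 to Incenp was 0.709 to 1.23 in knockout libraries and 0.448 to 0.671 in control libraries, without overlap, while Aurkb to Incenp overlapped. How many pairs of listed genes separate in this way was not counted.

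Within the knockout group the 4 genes varied together. Each was highest in replicate 3, at 4.30 to 4.71 times its control mean, and lowest in replicate 2, at 1.61 to 2.45 times. The same order of the knockout libraries was found in 17.9% of all listed genes and in 21.3% of the 413 that rose. It was noticed after the values were seen. None of the other 5 listed mitotic genes had it. Replicate 3 was the highest for 3 of those 5, beside 36.7% of all listed genes and 45.5% of the 413 that rose. So few genes do not set them apart from these shares. Control libraries showed no order common to the 4 genes, with replicate 1 highest for Mki67, Ccnb2 and Aurkb and replicate 2 highest for Birc5. From the lowest to the highest knockout library the 4 genes covered a 1.78-fold to 2.72-fold range each. Single listed genes with 0.8 to 4 FPKM in the higher group had a median range of 1.34-fold, over the 187 with no knockout library at 0, and the widest was 84.1-fold. The other 5 mitotic genes covered 1.15-fold to 2.12-fold.

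**Figure D4:**
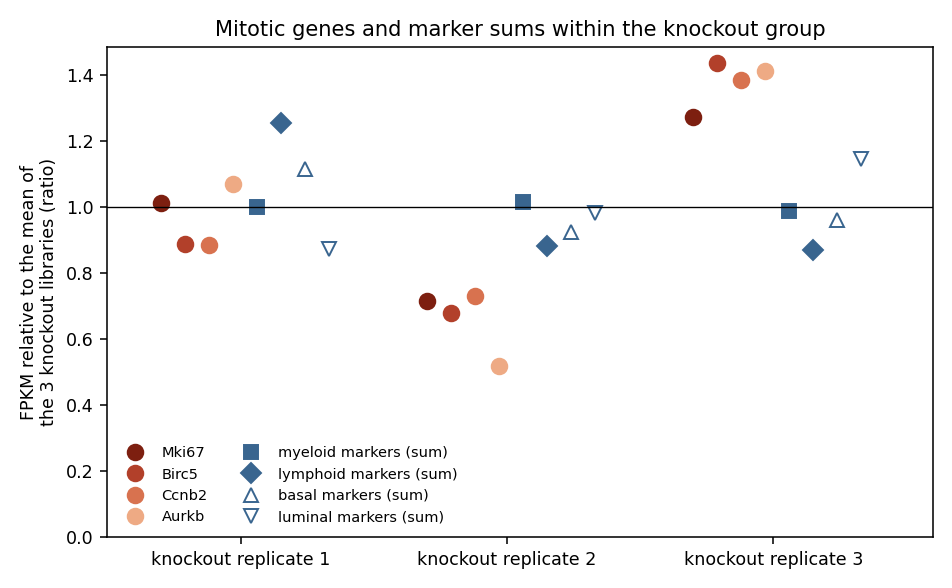
FPKM in each knockout library divided by the mean of the 3 knockout libraries, for the 4 mitotic genes (filled circles) and for the summed FPKM of listed myeloid, lymphoid, basal and luminal markers. The 4 genes lie below 1 in replicate 2 and above it in replicate 3, while each marker sum pools several genes, abundant ones such as Cd74 above all, and is no measure of the range of single markers.

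Of 95 genes on a wider list for mitosis and the G2 phase, 9 were in the table and all 9 rose, with 86 not analysed here. Among all listed genes 65.3% rose, and 85.1% of those with 0.8 to 4 FPKM, so that 9 of 9 is near what the list gives. On values centred on the median of the listed genes 8 of the 9 were still higher and only Fam64a passed, while Incenp was at -0.0071 on the log2 scale. The median of the 9 was 3.23-fold, beside 1.91-fold for all listed genes. Besides the 4 genes above, the other 5 rose 1.84-fold to 5.01-fold, with adjusted p-values from limma of 0.00232 to 0.0143. For none of the 9 did the groups overlap, and all 3 knockout libraries lay above all 3 control libraries for 66.9% of all listed genes.

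Ect2, the exchange factor that activates RhoA for cytokinesis, had 1.11, 0.814 and 0.523 FPKM in knockout replicates 1 to 3, against 0.235, 0.237 and 0.130 FPKM in the control replicates, a 4.06-fold rise. It was lowest in the knockout replicate where the 4 genes were highest. Kif22, a kinesin that moves along spindle microtubules while bound to chromosomes, had 0.864, 0.993 and 0.985 FPKM in knockout and 0.350, 0.223 and 0.307 FPKM in control, a 3.23-fold rise with little spread among the knockout libraries. Cenpa, the histone H3 variant that marks the centromere, had 3.07, 3.53 and 4.52 FPKM in knockout and 1.28, 1.55 and 1.66 FPKM in control, a 2.48-fold rise.

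Incenp had 2.10, 2.28 and 2.79 FPKM in knockout replicates 1 to 3, against 1.63, 1.24 and 1.03 FPKM in the control replicates, and its 1.84-fold rise was the smallest of the 9. With it, 3 of the 4 passenger complex genes were listed and rose, in a table where 65.3% of all genes rose. Fam64a had the largest fold of the 9, 5.01-fold, at 0.807, 0.845 and 1.23 FPKM in knockout and 0.211, 0.0810 and 0.283 FPKM in control, where replicate 2 was low.

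Of 64 DNA replication genes 1 was listed, Mcm5, which had 2.18, 1.66 and 2.16 FPKM in knockout and 0.975, 1.11 and 0.728 FPKM in control and rose 2.13-fold (limma, adjusted p = 0.00682). None of 32 regulators of G1 and of cell cycle arrest (D-type cyclins and CDK inhibitors among them) and none of 19 spindle orientation genes was listed, and these lists were not analysed here.

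**Figure D5:**
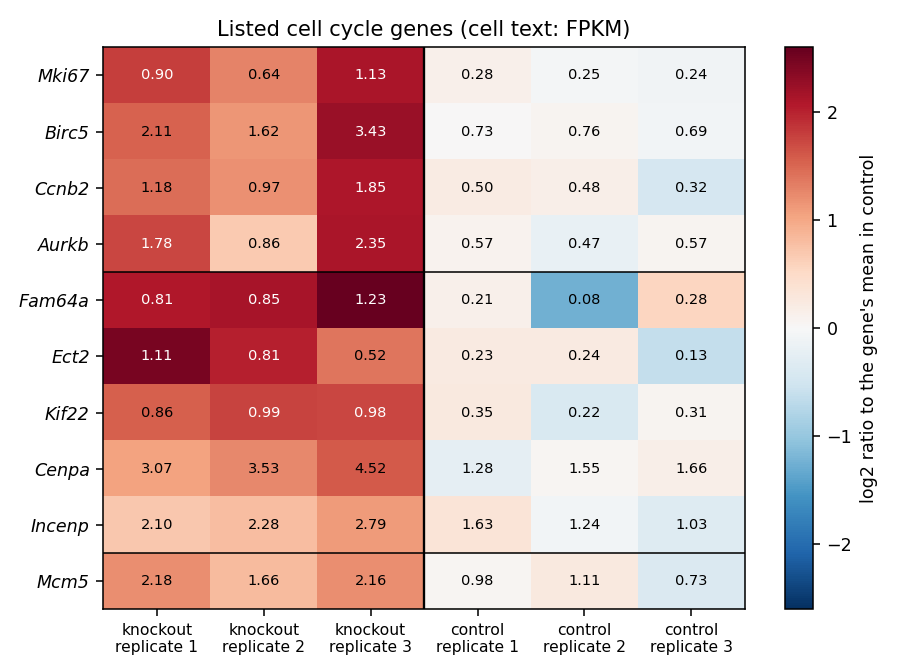
Heat map of the 10 listed cell cycle genes in the 3 knockout (left) and 3 control libraries (right), coloured by the log2 ratio to the mean of the gene in control and printed with the FPKM; lines separate the 4 mitotic genes, the other 5 and Mcm5. All 10 rows are above their control mean in every knockout library, and Ect2 alone has its lowest knockout value in replicate 3.

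Listed markers of blood cells were also higher in knockout libraries. Of 24 myeloid markers 17 were listed and 17 rose, in a table where 65.3% of all genes were called as risen. Their summed level was 724 to 743 FPKM in knockout libraries and 314 to 411 FPKM in control libraries. Cd74, Lyz2, C1qa and C1qb were the most abundant. Cd74 alone had a mean of 300 FPKM in knockout and 140 FPKM in control, so it weighs heavily in the sum. Ptprc, the pan-leukocyte antigen CD45, had 3.89, 3.59 and 4.29 FPKM in knockout and 1.28, 2.12 and 1.25 FPKM in control. Of 21 lymphoid markers 6 were listed and 6 rose, namely the B cell and plasma cell genes Cd79a, Cd79b, Ighm, Igkc and Jchain and Sdc1, which epithelial cells express as well, with sums of 415 to 599 FPKM in knockout and 116 to 186 FPKM in control. No listed marker was at 0 in any library. The part of blood cells in the rise of the mitotic genes was not tested, and in such libraries more cells of a type and more RNA per cell cannot be told apart.

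Taken one by one, the 17 listed myeloid markers covered a 1.02-fold to 1.54-fold range over the 3 knockout libraries and the 6 lymphoid markers a 1.08-fold to 1.53-fold range, against 1.78-fold to 2.72-fold for the 4 mitotic genes, which are at lower levels than most of these markers. The order of knockout libraries seen for the 4 genes was found in 3 of the 17 myeloid markers (17.6%), Ptprc, Aif1 and Ccr2, and in 1 of the 6 lymphoid ones (16.7%), Sdc1, beside 17.9% of all listed genes. The lymphoid sum was highest in knockout replicate 1, at 599 FPKM, and was 421 and 415 FPKM in replicates 2 and 3. Igkc alone had 485, 324 and 317 FPKM in knockout replicates 1 to 3, so it weighs heavily in this sum. Cd79a, Ighm and Jchain were also highest in replicate 1, but Cd79b in replicate 2 and Sdc1 in replicate 3. The epithelial markers listed were higher in knockout as well, with 5 of 5 basal and 3 of 3 luminal genes called as risen, counts too small to set beside the 65.3% of all listed genes. Basal sums were 168 to 202 FPKM in knockout and 85.4 to 115 FPKM in control, and luminal sums were 57.2 to 74.9 FPKM in knockout and 18.1 to 31.1 FPKM in control. Of 12 fibroblast markers 4 were listed and rose, with sums of 122 to 127 FPKM in knockout and 72.0 to 91.7 FPKM in control, and none of 8 endothelial markers was listed.

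The listed genes most like the 4 were sought by the root mean square difference of log2(FPKM + 1) over the 6 libraries, each gene taken relative to its own control mean. The nearest 5 were Col17a1, the collagen of hemidesmosomes, at 0.112, then Wfdc8, of the whey acidic protein family, at 0.116, Sh3bgrl3 at 0.117, Tspan8, a tetraspanin, at 0.122 and Frzb, a secreted Wnt antagonist, at 0.123. The median over all listed genes was 0.353, and the 4 genes themselves lay at 0.0697 to 0.150 from their mean profile. Each of the 4 is part of that mean, so some of their nearness is given by construction. Even so, Mki67 at 0.137 and Birc5 at 0.150 lay farther from it than the nearest 5 genes did. None of the 5 is on the mitosis list. Their folds were 2.29, 2.69, 1.58, 1.62 and 3.78 in the order named, against 3.10 to 3.42 for the 4 mitotic genes. The pseudocount shrinks differences of genes at low levels more than those of abundant genes. Nearness on this scale is therefore not likeness in fold. Col17a1 had 3.60, 3.07 and 4.07 FPKM in knockout and 1.62, 1.61 and 1.47 FPKM in control. It had the order of knockout libraries of the 4 mitotic genes, as did Sh3bgrl3 and Frzb, but not Wfdc8 and Tspan8. All 5 were chosen by their profile over these same libraries, so a shared order is partly given by the choice.

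By annotation (GENCODE M21, GRCm38), Mki67 lies on chromosome 7 from 135689784 to 135716361, Ccnb2 on chromosome 9 from 70407692 to 70421547, Birc5 on chromosome 11 from 117849251 to 117855743 and Aurkb on chromosome 11 from 69045647 to 69051664. All are protein-coding, and their longest coding transcripts have 14, 9, 3 and 8 exons in that order. Gm45240, a provisional transcript on the opposite strand, overlaps Mki67, and a pseudogene named Ccnb2-ps is annotated. Whether the authors counted by strand and how they treated reads that fit both copies is not stated in any source used here, so the values of Mki67 and Ccnb2 could include reads from these.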

How the data were processed

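Expression was measured in 6 libraries, grouped by the genotype label. The deposited table holds FPKM, which the authors normalised for transcript length and library size. This unit is inferred from the form of the values and from Cuffdiff, Cufflinks 2.2.1 and TopHat2 2.0.14, the tools named with build GRCm38 in the submitters' processing notes. Depth is unknown, and no fragment counts were derived. All 632 listed genes were fitted on the log2(FPKM + 1) scale, knockout minus control, in limma 3.58.1 (R 4.3.3) with a prior that follows the mean level, with Benjamini-Hochberg adjustment and a threshold of 0.05. This step was tested on simulated data in which no genes were selected by their difference. That test therefore does not cover calls in a list selected on these libraries. A fold is the knockout mean over the control mean, without pseudocount. Summaries and motif searches used Python 3.11.15 with pandas 2.3.3, numpy 2.4.6 and scipy 1.17.1. The members and gene lists were chosen with earlier results of these data known. Named genes were the 4 members, every listed gene of the cell cycle lists, up to 4 abundant listed genes per marker list, Ptprc and Cd79a, and the 5 genes nearest in profile, leaving out predicted genes and immunoglobulin segments. All 6 listed lymphoid genes were named after their values were seen. Marker lists are described by counts and summed FPKM. Alternative settings are compared in the closing section.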

Additional observations from a re-analysis of the deposited data

How the results depend on the processing

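Every alternative run left Mki67, Birc5, Ccnb2 and Aurkb higher in knockout. With each library left out in turn, the limma log2 differences were 0.48 to 0.67 for Mki67, 0.72 to 1.10 for Birc5, 0.54 to 0.80 for Ccnb2 and 0.57 to 0.99 for Aurkb, the calls lost being those of Aurkb named above, and 8 to 9 of the 9 listed mitotic genes and 389 to 489 of all listed genes were called. With values centred on the median of the listed genes, none of the 4 passed, at 0.22 for Mki67, 0.37 for Birc5, 0.26 for Ccnb2 and 0.27 for Aurkb (adjusted p = 0.0636, 0.0945, 0.106 and 0.232), Incenp was at -0.0071, 1 of the 9 mitotic genes passed and 260 listed genes were called, 97 risen and 163 fallen. This centring takes 0.84 to 0.93 log2 units from each knockout library by construction, in a list where most genes are higher in knockout. From the control libraries it takes -0.206 to 0.149 log2 units. The values are divided before the pseudocount is added, so the pseudocount shrinks the differences of these low genes further. With the adjustment widened to the 21951 annotated protein-coding genes, 24 listed genes and 0 of the mitotic genes passed, with unchanged differences of 0.58, 0.94, 0.69 and 0.75 (adjusted p = 0.198, 0.239, 0.280 and 0.644); the unadjusted limma p was 0.00185 for Mki67, 0.00269 for Birc5, 0.00347 for Ccnb2 and 0.0111 for Aurkb. At a threshold of 0.01, 293 listed genes passed and Aurkb did not (0.75, adjusted p = 0.0186). Among genes with at least 1 FPKM in the higher group, 427 were called, 381 risen and 46 fallen. In that setting 5 mitotic genes remained to be tested and 5 rose, while Mki67 gave no value. Birc5, Ccnb2 and Aurkb passed this filter only through their knockout means, so their calls there add no separate support. On a scale added after the values were seen, which centres the gap between the smallest listed rises and falls (a log2 shift of 0.15), 390 genes rose and 119 fell, a share of rises of 76.6% against 90.0% on the deposited scale, and the 4 genes and the other 5 mitotic genes were all called as risen. A pseudocount of 0.1 moved the limma log2 differences to 1.43 for Mki67, 1.52 for Birc5, 1.41 for Ccnb2 and 1.37 for Aurkb; neither it nor a constant prior nor leaving out genes at 0 changed a call of the 4. No paired analysis was possible because the labels give the groups no shared replicate numbers.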
